A study of Mus musculus with 9 samples.

Results

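The miR-379/miR-410 cluster is a run of microRNA hairpins in the imprinted Dlk1-Dio3 region of mouse chromosome 12. Its members were taken as 41 named mature miRNAs that lie between miR-379 and miR-410, whatever their values. All 41 were found among the 1129 rows of the deposited miRNA table, where the prefix mmu stands for mouse, and 38 of the 447 rows that passed the filter on low counts are members. The study sequenced small RNA of dorsal skin; its mice were adult C57BL/6 females, 6 months old, with a punch wound 8 mm wide. The groups are skin of a diabetic mouse model, wound-edge skin of day 7, and day 0 skin as removed by the punch, with 3 libraries each. The diabetic libraries are titled T7, while their table columns carry T0. Their treatment text speaks of skin cut out by the punch and collected as day 0 samples. Title and other labels thus differ, so their day is not settled and the model cannot be told apart from a difference in time. The labels do not say how diabetes was induced, and they do not tie each library to a separate animal, so p-values measure the spread between these libraries.

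In the Dlk1-Dio3 region the miRNAs are made from the maternally inherited chromosome, on long noncoding transcripts that run through the cluster. Each hairpin can give a 5p and a 3p mature miRNA, and the arm that is loaded into Argonaute silences mRNAs that pair with its seed, bases 2 to 8. The cluster is best known from brain, from muscle and mesenchyme, and from the kidneys of diabetic mice, where its host transcript was studied under endoplasmic reticulum stress. In mouse hind limbs, blocking single members of the region, among them miR-494, miR-495 and miR-329, was reported to improve the growth of new vessels.

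The members come from 33 hairpins, all on the plus strand, which span 34.7 kb at chr12:109709060-109743795 of GRCm38.p6. Of these hairpins, 12 lie within the annotated long noncoding gene Mirg, where 4 are exonic, 4 partly exonic and 4 intronic in GENCODE, and 21 lie upstream of it. Among the members, 14 are 5p and 27 are 3p arms. RefSeq gives a mature sequence for 38 of the 41. The sequences below, from RefSeq on GRCm38.p6, are those of the 8 most abundant members, of both ends of the cluster, of near-identical pairs and of the members that the comparisons turn on, with the seed in capitals.
miR-379-5p: uGGUAGACuauggaacguagg
miR-379-3p: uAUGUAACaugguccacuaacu
miR-411-5p: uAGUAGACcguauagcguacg
miR-411-3p: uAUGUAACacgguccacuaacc
miR-381-3p: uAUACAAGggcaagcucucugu
miR-300-3p: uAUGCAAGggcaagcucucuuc
miR-541-5p: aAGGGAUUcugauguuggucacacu
miR-299a-3p: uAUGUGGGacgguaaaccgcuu
miR-134-5p: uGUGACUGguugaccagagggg
miR-382-5p: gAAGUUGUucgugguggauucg
miR-409-5p: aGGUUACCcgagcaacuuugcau
miR-409-3p: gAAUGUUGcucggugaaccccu
miR-494-3p: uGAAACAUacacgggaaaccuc
miR-495-3p: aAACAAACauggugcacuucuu
miR-543-3p: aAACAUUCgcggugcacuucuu
miR-376a-3p: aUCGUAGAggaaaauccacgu
miR-376b-3p: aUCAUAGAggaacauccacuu
miR-377-3p: aUCACACAaaggcaacuuuugu
miR-410-3p: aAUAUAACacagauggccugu

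The seeds hardly repeat within the cluster, and the hairpins nevertheless give several near copies. The 38 sequences carry 37 different seeds, and the only seed held by more than 1 member is AUGUAAC, in miR-379-3p and miR-411-3p. With positions counted from the 5′ end, these 2 differ at U10C and U22C. miR-300-3p and miR-381-3p, which are identical at 19 of 22 positions, differ at G4A, U21G and C22U, so that their seeds differ by 1 base. miR-376a-3p and miR-376b-3p are identical at 18 of 21 positions and differ at G4A, A13C and G20U. miR-495-3p and miR-543-3p differ at A6U, A7U, A9G and U10C and have the same 3′ ends. How the counting treated reads with mismatches or with several matches is not given in the sources used here, so the split of reads between such partners is uncertain. miR-299a-3p has the seed of miR-299b-3p, a row that is not a member, and miR-379-5p has that of miR-1193-5p.

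Library totals ran from 2537167 to 5453539 counts, and 40 or 41 of the 41 members had at least 1 read in each library. Levels are given as CPM, counts divided by TMM-scaled library totals, a scaling under which a typical miRNA does not change. They are read levels with no length term, and a fold change is relative to the rest of the miRNAs. The tissue label was checked on marker lists: the 7 listed keratinocyte miRNAs summed to 62160 to 88867 CPM in diabetic skin, 57149 to 61562 CPM at day 7 and 67984 to 81563 CPM at day 0, and all 7 were detected well enough to test. Striated muscle miRNAs, which skin of the back can carry with its muscle layer, summed to 30279 to 132597 CPM in diabetic skin, 50402 to 100711 CPM at day 7 and 44321 to 62631 CPM at day 0, with miR-208b-3p close to 0. The nerve list was low, at 186 to 291 CPM over the 9 libraries, and its brain-specific miR-124-3p had 11 reads in all.

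In skin the cluster was carried by a few arms. miR-379-5p, the first hairpin's main product, held on average 41.9% of the cluster's reads and miR-411-5p, from the neighbouring hairpin, held 27.0%. With miR-381-3p, miR-541-5p, miR-300-3p and miR-299a-3p, the first 6 arms made up 90.4% of the cluster. Averaged over the 9 libraries, 8 members stood above 100 CPM, 21 between 10 and 100 CPM, 10 between 1 and 10 CPM and 2 below 1 CPM.

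mmu-miR-379-5p had 3977, 4892 and 5362 CPM in diabetic skin, 3576, 4328 and 4113 CPM at day 7 and 5341, 3801 and 3978 CPM at day 0 (replicates 1, 2 and 3, here and below). mmu-miR-411-5p had 2406, 2774 and 2694 CPM in diabetic skin, 2657, 2357 and 2758 CPM at day 7 and 4383, 2763 and 2688 CPM at day 0. For both, day 0 replicate 1 was far above the other day 0 libraries, and the ranges of the groups overlapped. mmu-miR-381-3p had 779, 1009 and 1257 CPM in diabetic skin, 632, 639 and 637 CPM at day 7 and 1388, 704 and 626 CPM at day 0. Its near copy mmu-miR-300-3p had 401, 481 and 435 CPM in diabetic skin, 421, 432 and 336 CPM at day 7 and 632, 392 and 288 CPM at day 0. Among these libraries miR-381-3p was higher in every diabetic library than in any day 7 library, while the miR-300-3p values overlapped.

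mmu-miR-541-5p, from an intron of Mirg, had 607, 656 and 452 CPM in diabetic skin, 831, 1044 and 564 CPM at day 7 and 949, 539 and 370 CPM at day 0. mmu-miR-299a-3p had 314, 386 and 289 CPM in diabetic skin, 340, 318 and 254 CPM at day 7 and 472, 320 and 227 CPM at day 0. Both spread more widely within day 0 than the group means did, which ran from 572 to 813 CPM for miR-541-5p and from 304 to 340 CPM for miR-299a-3p. mmu-miR-134-5p, which limits the size of dendritic spines in rat neurons by repressing Limk1, had 213, 224 and 211 CPM in diabetic skin, 240, 296 and 173 CPM at day 7 and 196, 189 and 142 CPM at day 0. mmu-miR-382-5p, made from the same stretch of Mirg, had 121, 117 and 102 CPM in diabetic skin, 119, 154 and 115 CPM at day 7 and 154, 116 and 95.8 CPM at day 0. The diabetic values of miR-134-5p lay close together and above all 3 day 0 values, and those of miR-382-5p overlapped with both other groups.

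**Figure D1:**
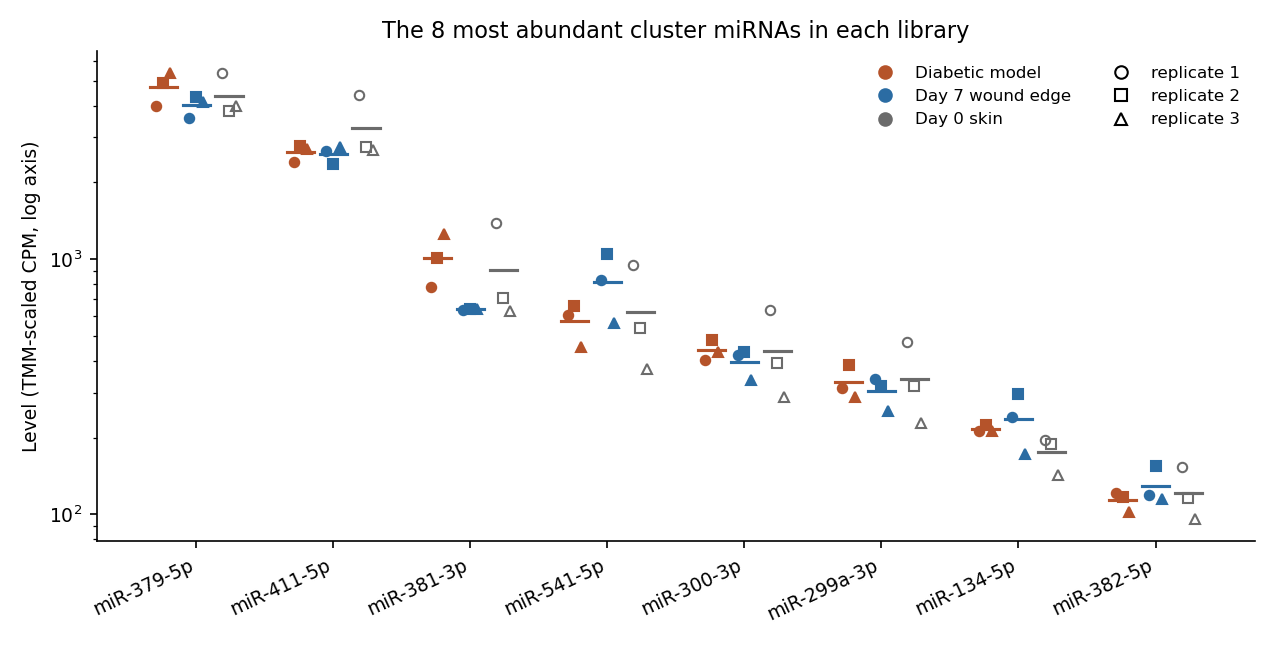
Level of the 8 most abundant members of the cluster in each library (TMM-scaled CPM, log axis), with symbols for the replicates and a bar at each group's mean. miR-379-5p and miR-411-5p lie highest in all 9 libraries, the lowest of their values being 2357 CPM, and day 0 replicate 1 (open circle) is the top day 0 point for each of the 8.

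At the far end of the cluster miR-410-3p, the last hairpin's product, had 34.9, 46.9 and 62.0 CPM in diabetic skin, 33.3, 43.5 and 33.2 CPM at day 7 and 58.9, 43.2 and 37.2 CPM at day 0. The passenger arm of the first hairpin, miR-379-3p, had 23.6, 29.6 and 27.2 CPM in diabetic skin, 22.7, 25.7 and 13.0 CPM at day 7 and 33.7, 24.7 and 19.6 CPM at day 0. The groups overlapped at both ends of the cluster. Finally, 3 members were too low to test: miR-539-5p with 4 to 12 reads a library, miR-412-5p with 0 to 9 and miR-654-3p with 0 to 7. The 17 tested members not described singly averaged between 3.79 and 70.2 CPM.

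The members' summed share of all counts was 1.29%, 1.34% and 1.16% in diabetic skin, 0.684%, 0.794% and 0.780% at day 7 and 1.82%, 0.964% and 0.934% at day 0. The mean was 1.26% ± 0.0959 in diabetic skin, 0.753% ± 0.0599 at day 7 and 1.24% ± 0.503 at day 0 (SD, n = 3 each). The day 7 shares lay below all others. The share of miR-21a-5p, the most abundant row, went the other way and was highest at day 7. It was 19.4%, 16.7% and 13.7% of counts in diabetic skin, 55.6%, 52.7% and 40.6% at day 7 and 18.6%, 33.2% and 27.4% at day 0. With miR-21a-5p left out of the total, the members' share averaged 1.52% ± 0.153 in diabetic skin, 1.51% ± 0.184 at day 7 and 1.65% ± 0.509 at day 0, and the groups overlapped. In these shares the lower day 7 value thus appeared only with miR-21a-5p in the total, and its cause was not tested. In bulk skin, a change in the number of cells that make the cluster and one in its level per cell cannot be told apart.

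On the scaled level the cluster differed more between libraries than between groups. The summed members reached 9384, 11206 and 11394 CPM in diabetic skin, 9606, 10451 and 9523 CPM at day 7 and 14466, 9413 and 8873 CPM at day 0. Within its group, day 0 replicate 1 was the highest library for 36 of the 38 tested members, whereas it was the highest for 32.7% of all tested miRNAs. Day 0 replicate 3 was the highest of its group for 1 of the 38, against 35.1% of all tested miRNAs. Day 7 replicate 3 was the highest of its group for 4 of the 38, against 35.3% of all. Each had the fewest counts of its group, 2807482 and 2537167. Diabetic replicate 3 also had the fewest of its group, 2861130, and was the highest of its group for 12 of the 38, against 41.6% of all. The part of depth was not tested.

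Other lists of this locus and of cell types were read in the same libraries. The Dlk1-Dio3 miRNAs outside the cluster summed to 9435, 5596 and 4682 CPM at day 0, so they were also highest in replicate 1. The fibroblast list summed to 16133, 17345 and 18856 CPM, the keratinocyte list to 67984, 71396 and 81563 CPM, and the muscle list to 54503, 62631 and 44321 CPM in the same day 0 libraries. None of these 3 lists was highest in day 0 replicate 1, while the low nerve list was, at 274, 194 and 205 CPM. Its part in the members' values was not tested. Because that library touches each comparison with day 0, values without it are given below.

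**Figure D2:**
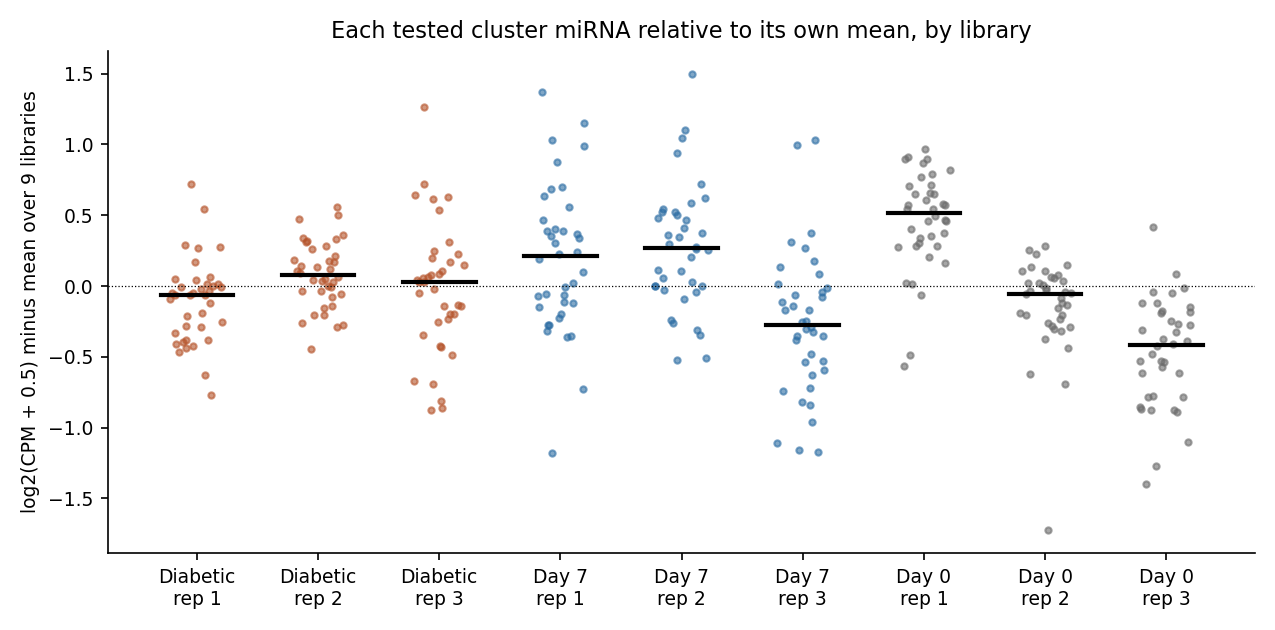
Each point is 1 of the 38 tested members in 1 library, as log2(CPM + 0.5) minus that member's mean over the 9 libraries, with a bar at the library's median. Nearly all points of day 0 replicate 1 lie above 0 and most points of day 0 replicate 3 lie below it, while the 3 diabetic libraries centre near 0.

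The first comparison set the day 7 wound edge against the day 0 skin that the punch removed. At an edgeR adjusted p under 0.05, 0 of the 38 tested members were called, where 12.8% of all tested miRNAs were (8.05% higher and 4.7% lower). At an unadjusted p under 0.05 there were 5 members, against 28.2% of all. DESeq2 called 0 members and 15.7% of all. The members' median log2 fold change was 0.08, that of all tested miRNAs 0.08, and 22 of 38 members had a positive value, as did 54.1% of all. With total-count scaling the medians were -0.50 for the members and -0.46 for all, and 8 of 38 members were called lower, where 26.2% of all were.

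The members at the edges of that range were mostly of low or middle level. miR-667-3p had 5.30, 2.34 and 5.29 CPM at day 7 and 3.24, 0.358 and 1.35 CPM at day 0. Its log2 fold change was 1.42 ± 0.63 (SE of the edgeR fit, 3 libraries per group, edgeR adjusted p = 0.167). miR-543-3p had 17.4, 14.4 and 5.29 CPM at day 7 and 11.7, 5.19 and 2.37 CPM at day 0 (0.95 ± 0.53, edgeR adjusted p = 0.278). miR-494-3p, one of the members blocked in the hind limb studies, had 59.8, 76.9 and 46.2 CPM at day 7 and 54.2, 22.7 and 19.97 CPM at day 0 (0.92 ± 0.38, edgeR adjusted p = 0.143). In all 3 the highest day 0 value was that of replicate 1, and it was inside the day 7 range.

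On the negative side miR-377-3p, which high glucose was reported to raise in human and mouse mesangial cells of the kidney, had 3.83, 8.69 and 6.26 CPM at day 7 and 18.0, 10.4 and 8.12 CPM at day 0 (-0.97 ± 0.41, edgeR adjusted p = 0.154). miR-154-5p, reported as raised in human lung fibrosis, had 21.8, 16.7 and 19.7 CPM at day 7 and 45.4, 23.6 and 25.7 CPM at day 0 (-0.70 ± 0.31, edgeR adjusted p = 0.165). miR-668-3p had 3.54, 3.01 and 1.44 CPM at day 7 and 5.74, 4.12 and 3.05 CPM at day 0 (-0.65 ± 0.41, edgeR adjusted p = 0.344). miR-154-5p was the 1 member of 38 whose day 7 and day 0 values did not overlap, where 30.4% of all tested miRNAs did not (18.3% higher and 12.1% lower). Of the most abundant members, miR-379-5p had a log2 fold change of -0.13 ± 0.18 and miR-411-5p of -0.34 ± 0.19, and neither passed.

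Without day 0 replicate 1, 3 of 39 tested members were called higher at day 7, where 7.5% of all were: miR-494-3p (1.44 ± 0.30, edgeR adjusted p = 0.0210), miR-667-3p (2.41 ± 0.66, 0.0435) and miR-409-3p (1.14 ± 0.33, 0.0456), and the members' median was 0.25. For miR-667-3p only 2 and 4 reads then stood behind day 0, against 18, 7 and 11 reads at day 7. With day 0 replicate 2 left out instead, miR-667-3p had 0.76 ± 0.55 (edgeR adjusted p = 0.442). With replicate blocks in the model, miR-409-3p (0.91 ± 0.20, edgeR adjusted p = 0.0121) and miR-494-3p (1.01 ± 0.30, 0.0390) were called higher, as were 11% of all. For miR-409-3p the value was 0.90 ± 0.33 with all 9 libraries and no block (edgeR adjusted p = 0.109). Of the cell type lists, 5 of 6 leukocyte miRNAs rose at day 7, with a summed level of 1423 to 1912 CPM at day 7 and 687 to 906 CPM at day 0. Of the keratinocyte list 3 of 7 miRNAs fell, with the sums given above, as did 1 of 5 fibroblast and 1 of 3 adipose miRNAs. The part of these lists in the members' values was not tested.

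The second comparison set diabetic skin against day 0 skin. No member was called (0 of 38), and 0% of all tested miRNAs were. At an unadjusted p under 0.05 there was 1 member, miR-376a-3p, against 8.95% of all. DESeq2 called 0 members and 1.12% of all. The members' median log2 fold change was -0.04, that of all tested miRNAs 0.04, and 17 of 38 members were positive, where 53.5% of all were. Without day 0 replicate 1 the median was 0.26, and still 0 members were called, where 0.208% of all were.

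miR-376a-3p, whose hairpin is a known target of A-to-I RNA editing in human and mouse brain, had 3.15, 2.76 and 4.83 CPM in diabetic skin and 0.998, 2.15 and 0.338 CPM at day 0. Its log2 fold change was 1.41 ± 0.57 (SE of the edgeR fit, 3 libraries per group, edgeR adjusted p = 0.529). miR-667-3p had 2.33, 2.39 and 2.07 CPM in diabetic skin and 3.24, 0.358 and 1.35 CPM at day 0 (0.52 ± 0.63, 0.809 by edgeR). miR-496a-3p had 9.18, 12.5 and 16.2 CPM in diabetic skin and 11.7, 7.70 and 8.80 CPM at day 0 (0.41 ± 0.35, 0.761 by edgeR). miR-376a-3p did not overlap between the groups, and these were all members of low level, where few reads stand behind each value. Without day 0 replicate 1 the value of miR-376a-3p was 1.27 ± 0.66, that of miR-667-3p 1.58 ± 0.67 and that of miR-496a-3p 0.59 ± 0.39. Without day 0 replicate 2 miR-667-3p turned to -0.09.

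On the negative side miR-758-3p, which targets the cholesterol exporter Abca1, had 1.78, 1.10 and 0.689 CPM in diabetic skin and 3.49, 1.61 and 0.677 CPM at day 0 (-0.61 ± 0.72, 0.809 by edgeR). miR-495-3p had 19.3, 26.9 and 14.1 CPM in diabetic skin and 47.4, 30.8 and 13.5 CPM at day 0 (-0.60 ± 0.43, 0.731 by edgeR). Its near copy miR-543-3p had 3.97, 5.71 and 3.79 CPM in diabetic skin and 11.7, 5.19 and 2.37 CPM at day 0 (-0.52 ± 0.55, 0.775 by edgeR). In each of these the day 0 values spanned the diabetic ones. Without day 0 replicate 1 the direction turned for miR-758-3p (0.05 ± 0.82) and miR-543-3p (0.19 ± 0.52), and miR-495-3p stood at -0.16 ± 0.41. miR-376a-3p and miR-134-5p (0.30 ± 0.22, 0.731 by edgeR), both higher, were the 2 members of 38 whose values did not overlap, where 13.9% of all tested miRNAs did not (8.28% higher and 5.59% lower).

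The third comparison set diabetic skin against the day 7 wound edge. It shares its day 7 and diabetic libraries with the comparisons above. It gave the 1 called member: miR-409-3p, from the 3′ part of the cluster and reported to promote epithelial-to-mesenchymal transition in human prostate cancer cells, was lower in diabetic skin than at day 7. It had 63.4, 58.5 and 36.9 CPM in diabetic skin and 124, 130 and 74.1 CPM at day 7, and it had 82.4, 55.2 and 38.9 CPM at day 0. Diabetic skin against day 0 gave a log2 fold change of only -0.15 ± 0.33 for miR-409-3p (edgeR adjusted p = 0.926). Day 7 against day 0 gave 0.90 ± 0.33 (edgeR adjusted p = 0.109). All 3 diabetic values were below all 3 day 7 values, a 2.06-fold lower level. The log2 fold change was -1.04 ± 0.33 (SE of the edgeR fit, 3 libraries per group, edgeR adjusted p = 0.0468). The count is 1 of 38 members called, where 19.9% of all tested miRNAs were (7.83% higher and 12.1% lower). Other members at an unadjusted p under 0.05 brought that count to 5, against 34.9% of all.

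The call of miR-409-3p was near the threshold and was lost in 11 of 19 alternatives, while its log2 fold change was negative in all 19, from -1.22 to -0.35. It passed with replicate blocks in the model (-1.05 ± 0.20, edgeR adjusted p = 0.00308) and by DESeq2 (-1.003 ± 0.31, adjusted p = 0.00817). Other scalings lost it, with an edgeR adjusted p of 0.0541 for DESeq2 size factors, 0.0785 for upper quartiles, 0.0935 for totals that leave out miR-21a-5p and 0.482 for total counts, as did limma on TPM (0.418). It also did not pass by edgeR without day 7 replicate 1 (0.187), day 7 replicate 2 (0.158), diabetic replicate 1 (0.0533), diabetic replicate 2 (0.127), diabetic replicate 3 (0.156) or day 0 replicate 2 (0.0802). The block also called miR-494-3p (-1.06 ± 0.29, edgeR adjusted p = 0.0224) and miR-543-3p (-1.41 ± 0.41, 0.0311) lower, which makes 3 of 38 members, where 12.8% of all were lower.

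miR-494-3p had 35.7, 30.2 and 23.1 CPM in diabetic skin and 59.8, 76.9 and 46.2 CPM at day 7, with no overlap (-1.03 ± 0.38, edgeR adjusted p = 0.0808). miR-543-3p had 3.97, 5.71 and 3.79 CPM in diabetic skin and 17.4, 14.4 and 5.29 CPM at day 7 (-1.47 ± 0.54, edgeR adjusted p = 0.0825). miR-381-3p, with its values given above, was higher in all 3 diabetic libraries (0.67 ± 0.28, edgeR adjusted p = 0.112). Diabetic and day 7 values did not overlap for 7 of the 38 members, 4 higher and 3 lower, where 38.3% of all tested miRNAs did not (17.4% higher and 20.8% lower). The members' median was -0.16, that of all tested miRNAs -0.02, and 16 of 38 members were positive, where 47.4% of all were. With total-count scaling the medians were 0.50 for the members and 0.61 for all, with 12 of 38 members called higher, where 38.9% of all were. Of the leukocyte list, 4 of 6 miRNAs fell in diabetic skin against day 7, with a summed level of 629 to 737 CPM in diabetic skin and 1423 to 1912 CPM at day 7. In the same comparison 3 of 7 keratinocyte, 2 of 3 adipose and 1 of 5 fibroblast miRNAs rose, and 1 of 3 tested nerve miRNAs fell. The keratinocyte sums are given above, and the adipose sums were 8420 to 15740 CPM in diabetic skin and 9731 to 14020 CPM at day 7. The part of these lists in the value of miR-409-3p was not tested.

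The 17 tested members not described singly were called in none of the comparisons. Of these, 12 had a positive value for day 7 against day 0, from -0.61 for miR-376b-3p to 0.69 for miR-323-3p. For diabetic skin against day 0, 7 were positive, from -0.49 for miR-485-5p to 0.30 for miR-369-3p, and against day 7, 4 were positive, from -0.94 for miR-487b-3p to 0.58 for miR-376b-3p. Their lowest edgeR adjusted p was 0.203 for day 7 against day 0, 0.679 for diabetic skin against day 0 and 0.179 for diabetic skin against day 7.

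**Figure D3:**
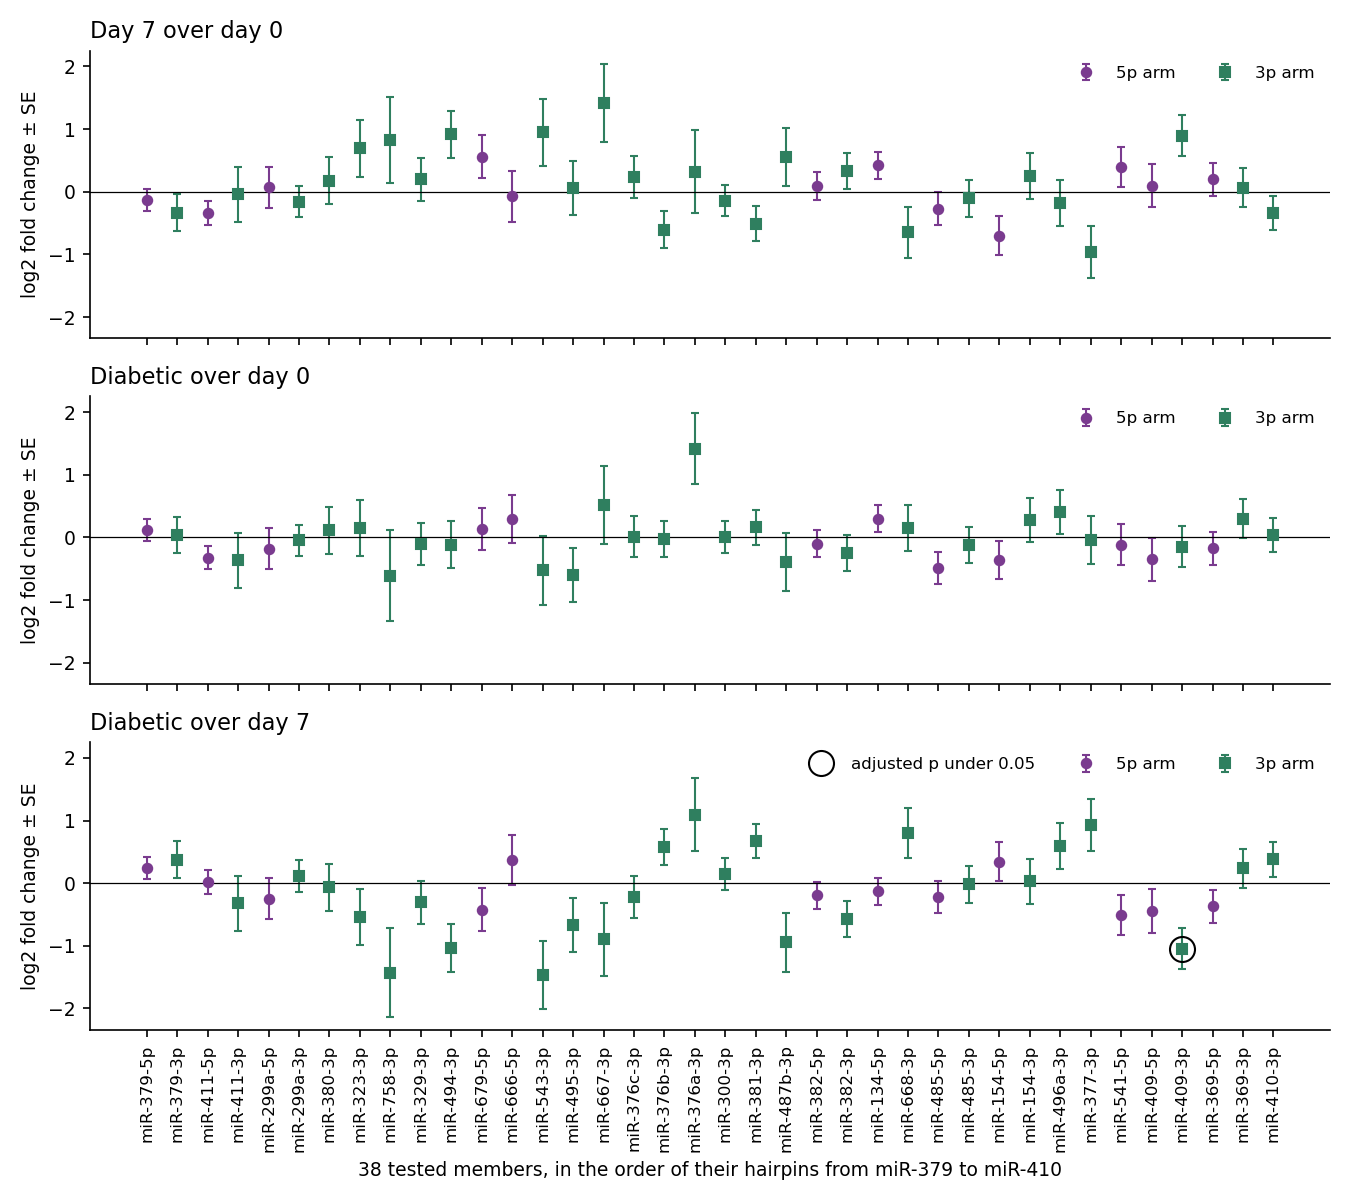
Log2 fold change with its SE (edgeR, n = 3 libraries per group) of the 38 tested members in the order of their hairpins, for day 7 over day 0, diabetic over day 0 and diabetic over day 7, with circles for 5p and squares for 3p arms. Members near each other in the cluster lie on both sides of 0, and miR-409-3p in the lowest panel is the only ringed point.

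Position and arm are described without a test. For day 7 against day 0 the 16 tested members within Mirg had a median log2 fold change of 0.08 and the 22 upstream of it 0.12. For diabetic skin against day 7 the medians were -0.07 within Mirg and -0.23 upstream. The 12 tested 5p arms had a median of 0.08 for day 7 against day 0 and the 26 tested 3p arms 0.12.

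Because all members share a library's total, their proportions within the cluster do not depend on library scaling. As a percent of the cluster's reads, miR-381-3p held 8.30, 9.005 and 11.03 in diabetic skin, 6.58, 6.11 and 6.69 at day 7 and 9.60, 7.48 and 7.05 at day 0. miR-409-3p held 0.676, 0.522 and 0.324 percent in diabetic skin, 1.29, 1.24 and 0.778 percent at day 7 and 0.569, 0.586 and 0.439 percent at day 0. miR-494-3p held 0.381, 0.269 and 0.203 percent in diabetic skin, 0.623, 0.736 and 0.485 percent at day 7 and 0.374, 0.242 and 0.225 percent at day 0. The day 7 values of miR-381-3p were thus the lowest of the 9 and those of miR-409-3p and miR-494-3p the highest, with no overlap with either other group.

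miR-411-5p held 25.6, 24.8 and 23.6 percent in diabetic skin, 27.7, 22.6 and 29.0 percent at day 7 and 30.3, 29.4 and 30.3 percent at day 0, so that every day 0 library was above all others. miR-377-3p held 0.0861, 0.117 and 0.130 percent in diabetic skin, 0.0399, 0.0832 and 0.0657 percent at day 7 and 0.124, 0.110 and 0.0916 percent at day 0. Over the tested members, 9 of 38 proportions did not overlap between day 7 and day 0, 4 higher and 5 lower, and when all tested miRNAs are scaled to the cluster's sum in the same way 23.5% did not (19.2% higher and 4.25% lower). Between diabetic and day 0 skin it was 3 of 38, 1 higher and 2 lower, against 6.94% of all (4.47% higher and 2.46% lower). Between diabetic and day 7 skin it was 12 of 38, 5 higher and 7 lower, against 37.4% of all (14.5% higher and 22.8% lower). The hairpins within Mirg gave 13.4%, 12.4% and 9.62% of the cluster's reads in diabetic skin, 16.8%, 19.0% and 12.4% at day 7 and 12.6%, 12.5% and 9.99% at day 0, so the groups overlapped.

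**Figure D4:**
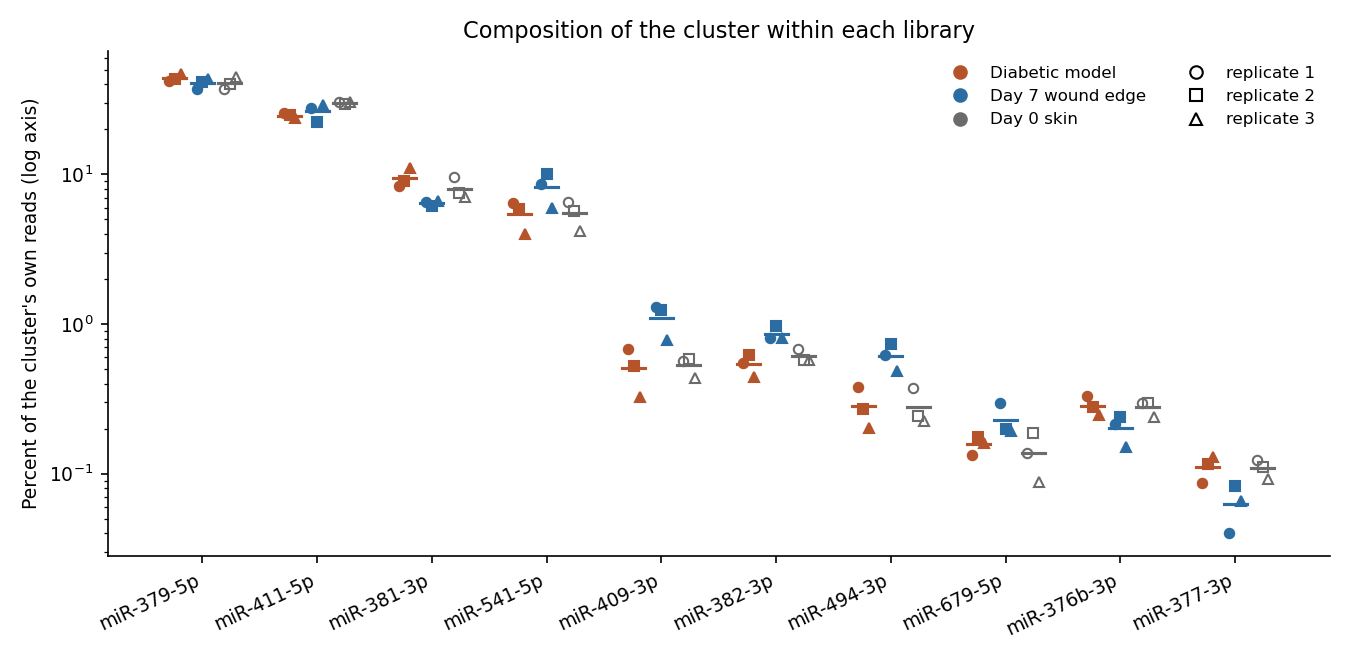
Percent of the cluster's own reads held by 10 members in each library (log axis), with a bar at each group's mean. The day 7 points lie above both other groups for miR-409-3p and miR-494-3p and below them for miR-381-3p and miR-377-3p.

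Arm balance differed mainly between hairpins. At the 8 hairpins with both arms among the members, the 5p arm held on average 99.4% of the reads of miR-379, 98.4% of miR-411, 86.2% of miR-154, 73.2% of miR-485, 63.9% of miR-382, 38.7% of miR-369, 36.4% of miR-409 and 5.41% of miR-299a. The ranges of the groups overlapped in every comparison at miR-379, miR-411, miR-154, miR-485 and miR-299a. The remaining 3 hairpins, described here because of their values, showed a gap in at least 1 comparison. Of all 20 hairpins of the stretch with enough reads of both arms together, 16 showed no gap in any comparison. The fourth with a gap was miR-541, where the 5p arm held 99.57%, 99.47% and 99.32% in diabetic skin, 99.79%, 99.65% and 99.91% at day 7 and 99.74%, 99.67% and 99.82% at day 0. With 3 against 3 libraries an exact permutation test cannot go below p = 0.1, so the arm shares are given without a test. How often hairpins elsewhere in the genome show such a gap was not computed. The gaps here therefore have no background beside them and are description only.

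At miR-409 the 5p arm held 33.5%, 39.0% and 44.8% in diabetic skin, 29.0%, 26.7% and 33.3% at day 7 and 44.7%, 40.4% and 36.1% at day 0. Every day 7 share was below every other, with the closest values at 33.5% in diabetic replicate 1 and 33.3% in day 7 replicate 3. The 95% Wilson half-widths of single libraries were 3.50 to 6.95 percentage points. The level of miR-409-5p averaged 33.1 ± 3.83 CPM in diabetic skin, 45.0 ± 7.07 CPM at day 7 and 42.0 ± 22.7 CPM at day 0 (SD, n = 3 each). At miR-382 the 5p arm held 70.1%, 62.7% and 67.0% in diabetic skin, 60.6%, 60.2% and 60.1% at day 7 and 60.9%, 68.0% and 65.4% at day 0. The day 7 libraries were again lowest, within less than the half-widths of 2.52 to 4.79 percentage points from the nearest others.

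At miR-369 the diabetic libraries were the lowest. Its 5p arm held 32.5%, 32.3% and 32.9% in diabetic skin, 44.6%, 38.4% and 46.3% at day 7 and 42.2%, 33.3% and 45.8% at day 0. The half-widths there were 4.71 to 10.6 percentage points, and the closest values, 32.9% in diabetic replicate 3 and 33.3% in day 0 replicate 2, differ by far less than that. Intervals cover counting error only, since PCR reads without molecular identifiers are not independent molecules.

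**Figure D5:**
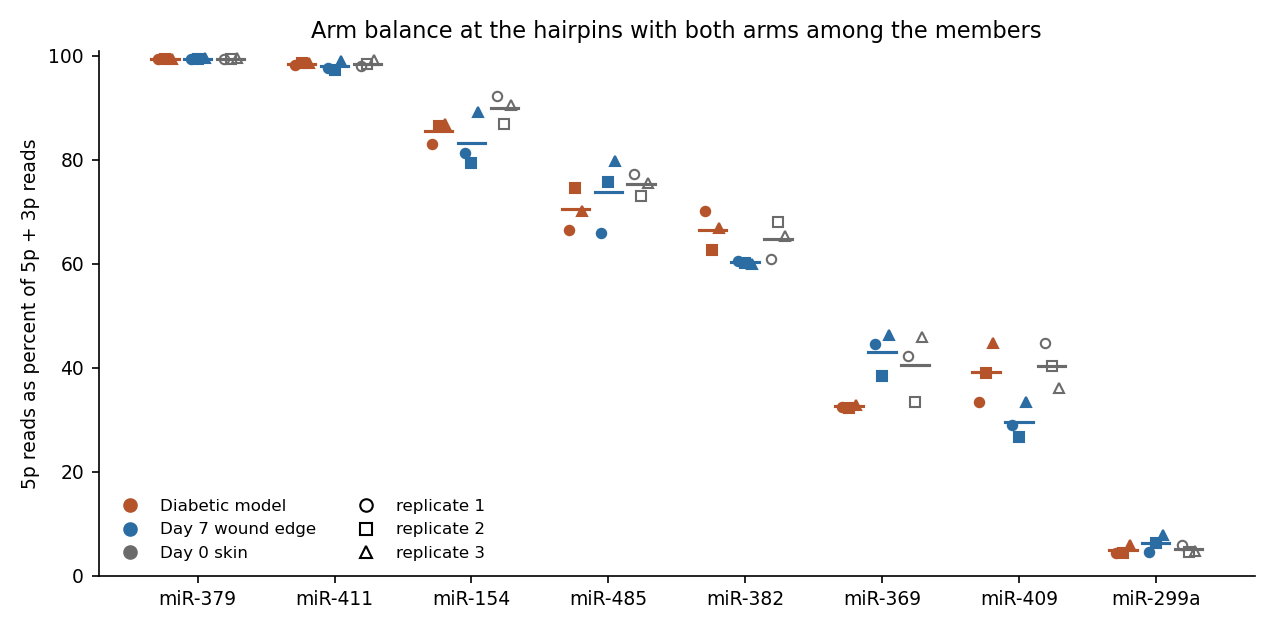
Reads of the 5p arm as a percent of the reads of both arms at the 8 hairpins with both arms among the members, for each library, with a bar at each group's mean. The hairpins run from nearly all 5p (miR-379, 99.4%) to nearly all 3p (miR-299a, 5.41% 5p), and group differences are small beside those between hairpins.

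Other rows of the same stretch were of lower level. Of 31 such rows, 11 passed the filter and 0 were called by edgeR in any comparison, with 0 at an unadjusted p under 0.05 against day 0 and 1 for diabetic skin against day 7. Their medians were 0.09 for day 7 against day 0, 0.04 for diabetic skin against day 0 and 0.16 against day 7. The most abundant were miR-329-5p, with 48.1 ± 4.12 CPM in diabetic skin, 44.9 ± 13.4 CPM at day 7 and 42.1 ± 21.0 CPM at day 0, and miR-376b-5p, with 44.3 ± 13.1 CPM in diabetic skin, 28.5 ± 8.26 CPM at day 7 and 47.0 ± 19.7 CPM at day 0 (SD, n = 3 each).

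Of the Dlk1-Dio3 miRNAs outside the cluster, 27 were in the table and 18 were tested. Their medians were -0.17 for day 7 against day 0, 0.03 for diabetic skin against day 0 and 0.19 for diabetic skin against day 7. The most abundant, miR-127-3p, made antisense to the imprinted gene Rtl1, had 2254 ± 533 CPM in diabetic skin, 2371 ± 233 CPM at day 7 and 2936 ± 1116 CPM at day 0 (SD, n = 3 each). miR-434-5p had 1109 ± 107 CPM in diabetic skin, 1401 ± 87.2 CPM at day 7 and 1510 ± 776 CPM at day 0. The groups of both overlapped with day 0. Calls were made only for diabetic skin against day 7. There miR-337-3p rose (log2 fold change 1.996 ± 0.41, SE of the edgeR fit, 3 libraries per group, edgeR adjusted p = 0.00555) and miR-370-3p fell (-1.38 ± 0.37, edgeR adjusted p = 0.0252). miR-337-3p had 7.26, 12.5 and 18.3 CPM in diabetic skin and 3.54, 2.01 and 3.85 CPM at day 7, and miR-370-3p had 36.2, 28.4 and 22.1 CPM in diabetic skin and 89.3, 81.9 and 55.4 CPM at day 7. The day 7 values of miR-337-3p rest on 12, 6 and 8 reads. Of the 18 tested, 1 was thus called higher and 1 lower, where 7.83% of all tested miRNAs were higher and 12.1% lower.

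An imprinted miRNA from elsewhere in the genome moved differently. Both arms of miR-335, from an intron of the paternally expressed gene Mest, rose at day 7 against day 0, and both fell in diabetic skin against day 7. Their summed level was 15.1, 16.0 and 25.9 CPM in diabetic skin, 197, 232 and 96.7 CPM at day 7 and 22.2, 19.9 and 24.7 CPM at day 0. No test compared miR-335 with the cluster.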

How the data were processed

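Small RNA of 9 skin libraries was sequenced as 50 bp single-end reads. The authors deposited 1 table with, per miRNA and library, a raw read count and a TPM value, per the file headers. The deposited TPM equals the CPM of the library total, as tested on the table, with no length term. Bowtie, DESeq 3.0.3 and the build mm9 are named in the submitters' processing notes with no role, and trimming, mismatch and multi-match settings are not stated in the sources read.

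Counts were tested with edgeR 4.0.16 (R 4.3.3; quasi-likelihood F test, TMM scaling, 1 fit over the 9 libraries). The filterByExpr filter, at a count of 10 and a total of 15, kept 447 rows, Benjamini-Hochberg adjustment covered all of them, and an adjusted p under 0.05 was a call. Standard errors come from the F statistic of the fit, which estimates the spread over all libraries fitted and not only over the groups compared. Common biological variation was 27.8%. The script was tested on simulated data. Alternatives used DESeq2 1.42.0, limma 3.58.1 on log2(TPM + 1), other scalings and filters, and each library left out in turn.

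Replicate numbers come from the titles. Same-numbered libraries deviated together from their group means in 9 of 9 pairs, with correlations from 0.102 to 0.484, which meets the criterion of over 0.1 for pairing. With the miR-122 rows left out, 6 of 9 pairs did. The labels name no pairing, so the main fit used group only, and calls with replicate blocks are given beside it. Replicate 3 also had the fewest counts in each group, and whether depth or paired animals lay behind these correlations was not tested. The diabetic columns were matched to their samples by the letter T and the number. Replicates differed far beyond counting noise, so none was counted as a repeat.

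Members and lists were chosen with earlier results of these data known. Members given singly are the 8 most abundant, those called in a comparison, the 3 largest and 3 smallest log2 fold changes where none was called, and both ends of the cluster. The 2 most abundant miRNAs of each other locus list are also given, and the rest of those named were picked once their values were known. Sequences are from RefSeq on GRCm38.p6 and were matched by name for 38 members. The position of Mirg is from GENCODE vM21.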

Additional observations from a re-analysis of the deposited data

How the results depend on the processing

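For diabetic skin against day 0, 0 members were called under each of the 19 alternatives run, with a median log2 fold change of -0.25 to 0.26 when 1 library was left out. For day 7 against day 0 the 0 calls became 8 lower with total-count scaling (median -0.50), where 26.2% of all tested miRNAs were lower, and 7 lower with limma on log2(TPM + 1) (median -0.35), where 27.3% were. They became 1 lower with no filter on low counts (2.83% of all) and 2 higher with the replicate block (11% of all), and they were 0 to 3 with 1 library left out (median -0.13 to 0.25). For diabetic skin against day 7 the 1 call became 12 higher with total-count scaling (median 0.50), where 38.9% of all were higher, and 11 higher with limma (median 0.49), where 38% were. It became 3 lower with DESeq2 (13.2% of all) and 3 lower with the replicate block (12.8%), and 4 in either direction with no filter (8.95%) and with the 2 groups fitted alone (18.9%). It became 0 with DESeq2 size factors, with upper-quartile scaling and with totals that leave out miR-21a-5p, and it was 0 to 4 with 1 library left out (median -0.23 to 0.06). The replicate block changed no call beyond those named with the results. The shift under total-count scaling and limma on TPM came with a similar shift of all tested miRNAs (medians -0.46 and -0.42 for day 7 against day 0, 0.61 and 0.56 for diabetic skin against day 7). The cause of this shift and of the other changes was not tested.

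The members' summed share moved to 1.52% in diabetic skin and 1.51% at day 7 with miR-21a-5p left out of the total. With 1 library left out it was 1.22% to 1.31% in diabetic skin, 0.732% to 0.787% at day 7 and 0.949% to 1.39% at day 0, the lower bound at day 0 without replicate 1. With 1 library left out, the 5p share of miR-409 was 36.2% to 41.9% in diabetic skin, 27.8% to 31.1% at day 7 and 38.3% to 42.6% at day 0, an alternative added after the data were seen. Depth limits the members below 10 CPM, where 3 reads correspond to 0.411 to 1.44 CPM.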
